A study of Mus musculus with 33 samples.

Results

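Mouse mammary organoids that carried 2 floxed Trps1 alleles were compared at day 14 of culture between the genotypes Cdh1F/F;Trps1F/F and Cdh1+/F;Trps1F/F. The comparison takes 4 of the 33 RNA-seq samples of the series, 2 libraries per genotype, assigned to the genotypes by their labels alone. It was picked with earlier results of these data known. Organoids were grown in Matrigel from primary mammary tissue of mice with loxP-flanked (F) alleles, and AdCre, an adenovirus that carries Cre recombinase, was used to recombine those alleles in culture 14 days before harvest. Both genotypes therefore share the floxed Trps1 alleles and the virus, and they differ at Cdh1, with 2 floxed alleles in the first and 1 floxed and 1 unmodified allele in the second. Libraries of the same pair of genotypes at day 28, and day 14 organoids that were Cdh1F/F with unmodified Trps1 (Cdh1F/F;Trps1+/+), 2 libraries per genotype and day, are given beside the comparison. The labels do not say whether the 2 libraries of a genotype came from separate mice or cultures, so p-values measure the spread between these libraries, which may be technical. Cre is delivered by a virus and not by a cell type's promoter, and any cells of the culture that the virus did not reach keep unrecombined alleles.

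Cdh1 encodes E-cadherin, the calcium-dependent adhesion protein of adherens junctions, whose tail binds beta-catenin and p120-catenin and through them the actin cytoskeleton. Its loss is the hallmark of invasive lobular breast carcinoma. Trps1 encodes a zinc finger protein of the GATA family that acts as a transcriptional repressor and is strongly expressed in mammary epithelium. A mammary duct holds an inner layer of luminal cells, joined by adherens junctions, tight junctions and desmosomes, and an outer layer of basal myoepithelial cells that contract and attach to the basement membrane through hemidesmosomes. Fibroblasts, adipocytes, endothelium and immune cells of the fat pad surround it.

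The 4 libraries held 18193967 to 22452308 reads in genes, and the 12 organoid libraries 14858175 to 30341897. Replicate libraries varied beyond counting noise: chi-square divided by its degrees of freedom, over genes, was 8.32 for Cdh1F/F;Trps1F/F and 9.06 for Cdh1+/F;Trps1F/F at day 14. The 2 columns of Cdh1+/F;Trps1F/F carry 1 shared header at each day, so its libraries are named replicates a and b. Values below are normalized counts, which are reads scaled per library by the authors.

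Trps1 (chr15:50654752-50890463, GRCm38, minus strand) had 2676 and 2462 normalized counts in the libraries labelled Cdh1F/F;Trps1F/F, 726 and 1010 in those labelled Cdh1+/F;Trps1F/F, and 12363 and 11628 in the Cdh1F/F;Trps1+/+ libraries. Both genotypes with floxed Trps1 stood far below the unmodified one. The log2 fold change (Cdh1F/F;Trps1F/F minus Cdh1+/F;Trps1F/F) was 1.58 (SE 0.182; limma, adjusted p = 1.51e-05), and at day 28 it was 1.40 (adjusted p = 2.39e-05), so the 2 genotypes did not have the same remaining Trps1 count. Cdh1 (chr8:106603351-106670246, plus strand) had 12373 and 12253 normalized counts in the libraries labelled Cdh1F/F;Trps1F/F, 11729 and 11558 in those labelled Cdh1+/F;Trps1F/F, and 8695 and 8629 in the Cdh1F/F;Trps1+/+ libraries. The Cdh1 count was thus not lower where 2 alleles were floxed: the log2 fold change was 0.08, with a 95% interval of -0.11 to 0.27 (SE 0.0867; limma, adjusted p = 0.493). With libraries centred on luminal and basal genes, a scaling described below, it was -0.50 (adjusted p = 0.000328). At day 28 Cdh1 was higher in the libraries labelled Cdh1F/F;Trps1F/F, by 0.78 on the log2 scale (adjusted p = 5.34e-06). The centring on luminal and basal genes lowers day 28 fold changes too. The log2 medians it sets equal were 0.522 and 0.483 in the day 28 libraries labelled Cdh1F/F;Trps1F/F. In those labelled Cdh1+/F;Trps1F/F they were -0.701 and -0.640. This gap is larger than 0.78, so Cdh1 falls below 0 at day 28 under that centring. A count over a whole gene includes exons outside a floxed part, and which exons are floxed was not given in the sources used here, so the counts do not check the Cdh1 label. For that reason the groups are named by label: Cdh1F/F-labelled for Cdh1F/F;Trps1F/F and Cdh1+/F-labelled for Cdh1+/F;Trps1F/F, and the Cdh1F/F;Trps1+/+ libraries are called Trps1+/+.

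Of 15860 genes kept after a filter on low values, 6438 (40.6%) were called at day 14 with limma at a Benjamini-Hochberg adjusted p under 0.05. Of these, 3016 (19.0% of the kept genes) were higher and 3422 (21.6%) were lower in the Cdh1F/F-labelled libraries, so that 46.8% of the calls were higher. Day 14 counts of list members given below are to be read beside the shares of 19.0% and 21.6%. With quantile normalization of the libraries 57.7% of the calls were higher (3899 against 2861). The large changes were uneven: 809 genes (5.10%) were higher and 2202 (13.9%) were lower by 2-fold or more, and 16 genes (0.101%) were higher and 176 (1.11%) lower by 16-fold or more. The median log2 fold change of all kept genes was 0.0129. A scaling chosen after the cell type markers had been seen to differ centred each library on 54 luminal and basal epithelial genes (called the epithelial centring below). It moved that median to -0.569 and gave 794 higher and 11080 lower genes, so where the median of a described list changes sign under it, that median is printed.

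**Figure D1:**
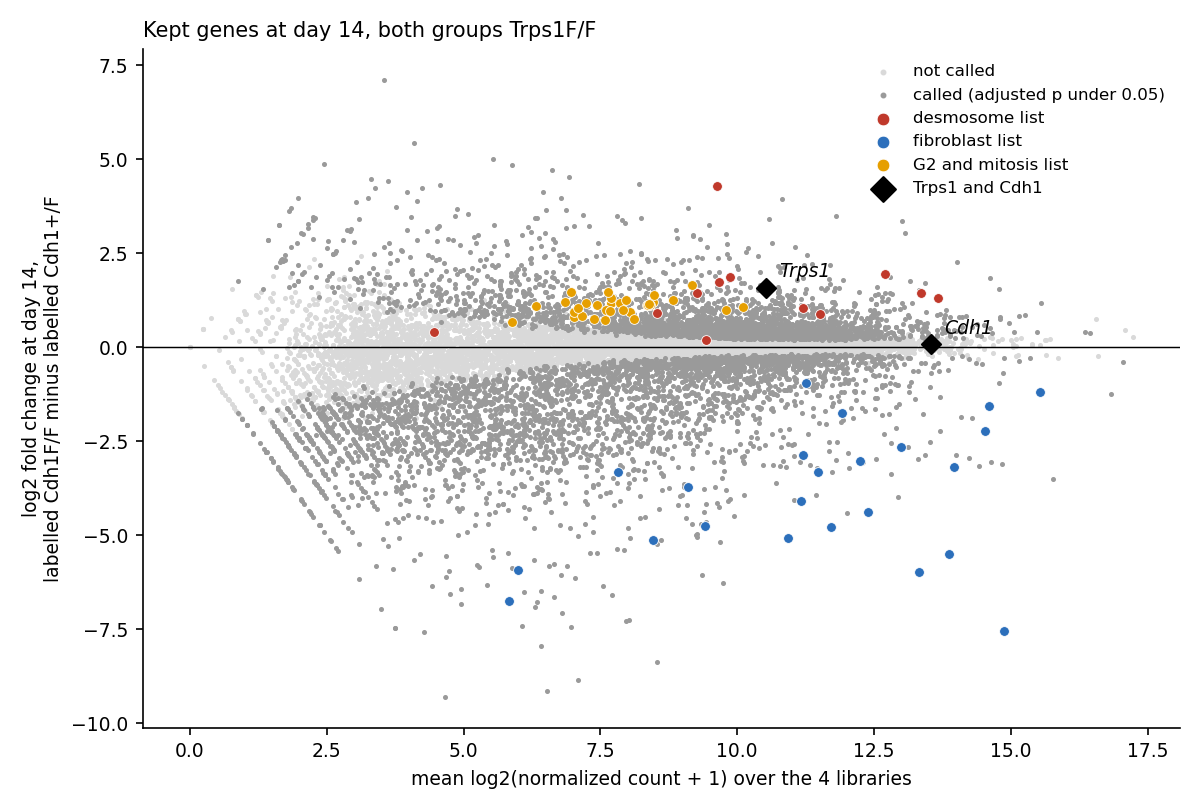
Log2 fold change at day 14 (Cdh1F/F-labelled minus Cdh1+/F-labelled, vertical axis) against the mean log2(normalized count + 1) of the 4 libraries for 15860 kept genes, with called genes in dark grey. Members of the desmosome list (red) and of the G2 and mitosis list (orange) lie above 0, members of the fibroblast list (blue) lie below 0 down to -7.55, Trps1 stands at 1.58 and Cdh1 near 0.

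The largest rises and falls were ranked only among called genes with a higher group mean above the median of kept genes (full naming rule below). The 14 largest rises of that ranking included components of the anchoring junctions of stratified and basal epithelium. Col17a1 (chr19:47646344-47692094, minus strand), the hemidesmosomal collagen XVII, had 27662 and 24720 normalized counts in the Cdh1F/F-labelled libraries, against 2628 and 2533 in the Cdh1+/F-labelled ones and 21440 and 20571 in Trps1+/+. The groups stood about an order of magnitude apart, with a log2 fold change of 3.34 (SE 0.114, adjusted p = 4.78e-10). Dsg3, a desmosomal cadherin of basal keratinocytes, had 3392 and 3592 normalized counts against 151 and 211 (Trps1+/+, 2302 and 1661; log2 fold change 4.28, SE 0.189, adjusted p = 3.41e-09). Krt17 (chr11:100256217-100261029), a keratin of basal and stressed epithelium, had 7263 and 6943 in Cdh1F/F-labelled libraries, against 455 and 474 in Cdh1+/F-labelled ones and 2294 and 2580 in Trps1+/+ (log2 fold change 3.93, SE 0.15, adjusted p = 1.21e-09). In each of these 3 genes both Trps1+/+ libraries lay above both Cdh1+/F-labelled ones. Krt17 shares sequence with other keratin genes, and how reads with several matches were counted was not given in the sources used here.

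The rest of the 14 were of varied function, and the Trps1+/+ libraries did not all side with one genotype. Synpr, a synaptic vesicle membrane protein, had 500 and 504 normalized counts in Cdh1F/F-labelled libraries, against 20 and 17 in Cdh1+/F-labelled ones and 47 and 32 in Trps1+/+. Car4, a membrane-bound carbonic anhydrase, had 513 and 655 against 25 and 24, with 1005 and 1155 in Trps1+/+. Their log2 fold changes were 4.71 (adjusted p = 4.05e-08) and 4.51 (adjusted p = 1.46e-06). Kcnq1, a voltage-gated potassium channel, had 825 and 727 normalized counts against 81 and 75, with 83 and 92 in Trps1+/+, and the lipoxygenase Alox12e had 811 and 732 against 81 and 66, with 79 and 57. Gpr128, an adhesion-type receptor, had 940 and 1064 in Cdh1F/F-labelled libraries, against 76 and 111 in Cdh1+/F-labelled ones and 20 and 14 in Trps1+/+. Synpr, Kcnq1, Alox12e and Gpr128 were thus high in 1 genotype of the 3, whereas Car4 was low in 1 of the 3. The others were St8sia6 (a sialyltransferase, 4.34), Dmkn (the epidermal secreted protein dermokine, 3.71), Ugt8a (the enzyme that makes galactosylceramide, 3.51), Anxa8 (an annexin, 3.48), Greb1 (an oestrogen-responsive gene, 3.48) and Tns4 (a focal adhesion protein, 3.41), all given as log2 fold changes with adjusted p from 7.12e-11 to 4.4e-08.

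Collagens and other matrix genes were among the 14 largest falls of the same ranking. Col3a1 (chr1:45311538-45349706, plus strand), the fibrillar collagen III chain, had 2328 and 2072 normalized counts in the Cdh1F/F-labelled libraries, against 442229 and 385819 in the Cdh1+/F-labelled ones and 16821 and 26674 in Trps1+/+. The Trps1+/+ libraries lay between the 2 groups (log2 fold change -7.55, SE 0.182; limma, adjusted p = 3.8e-11). Kera, the corneal and connective tissue proteoglycan keratocan, had no read in either Cdh1F/F-labelled library, against 616 and 648 normalized counts in the Cdh1+/F-labelled ones, which is at least 441-fold lower when 3 counts over the group are put in place of 0. Srpx had 2.82 and 2.91 against 2211 and 2154 (Trps1+/+, 34 and 37), and Cntn1, a neural cell adhesion molecule, had 23 and 16 against 7164 and 6372 (Trps1+/+, 132 and 163), with log2 fold changes of -9.14 and -8.38. The matrix genes Mfap4 (-7.94), Col6a5 (-7.41) and Cilp (-7.27), the Wnt antagonist Sfrp2 (-7.29), the complement component C7 (-7.45), the angiotensin receptor Agtr2 (-7.08), the carboxypeptidase Cpz (-6.77) and Clec3b (-6.76) fell likewise on the log2 scale. The secreted lectins Reg3g and Reg1, which belong to 1 family of similar genes, had 9.41 and 2.91 and 6.58 and 5.82 normalized counts in Cdh1F/F-labelled libraries, against 2665 and 3213 and 1021 and 725 in Cdh1+/F-labelled ones. For all 14 genes the Trps1+/+ libraries lay between the 2 groups.

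**Figure D2:**
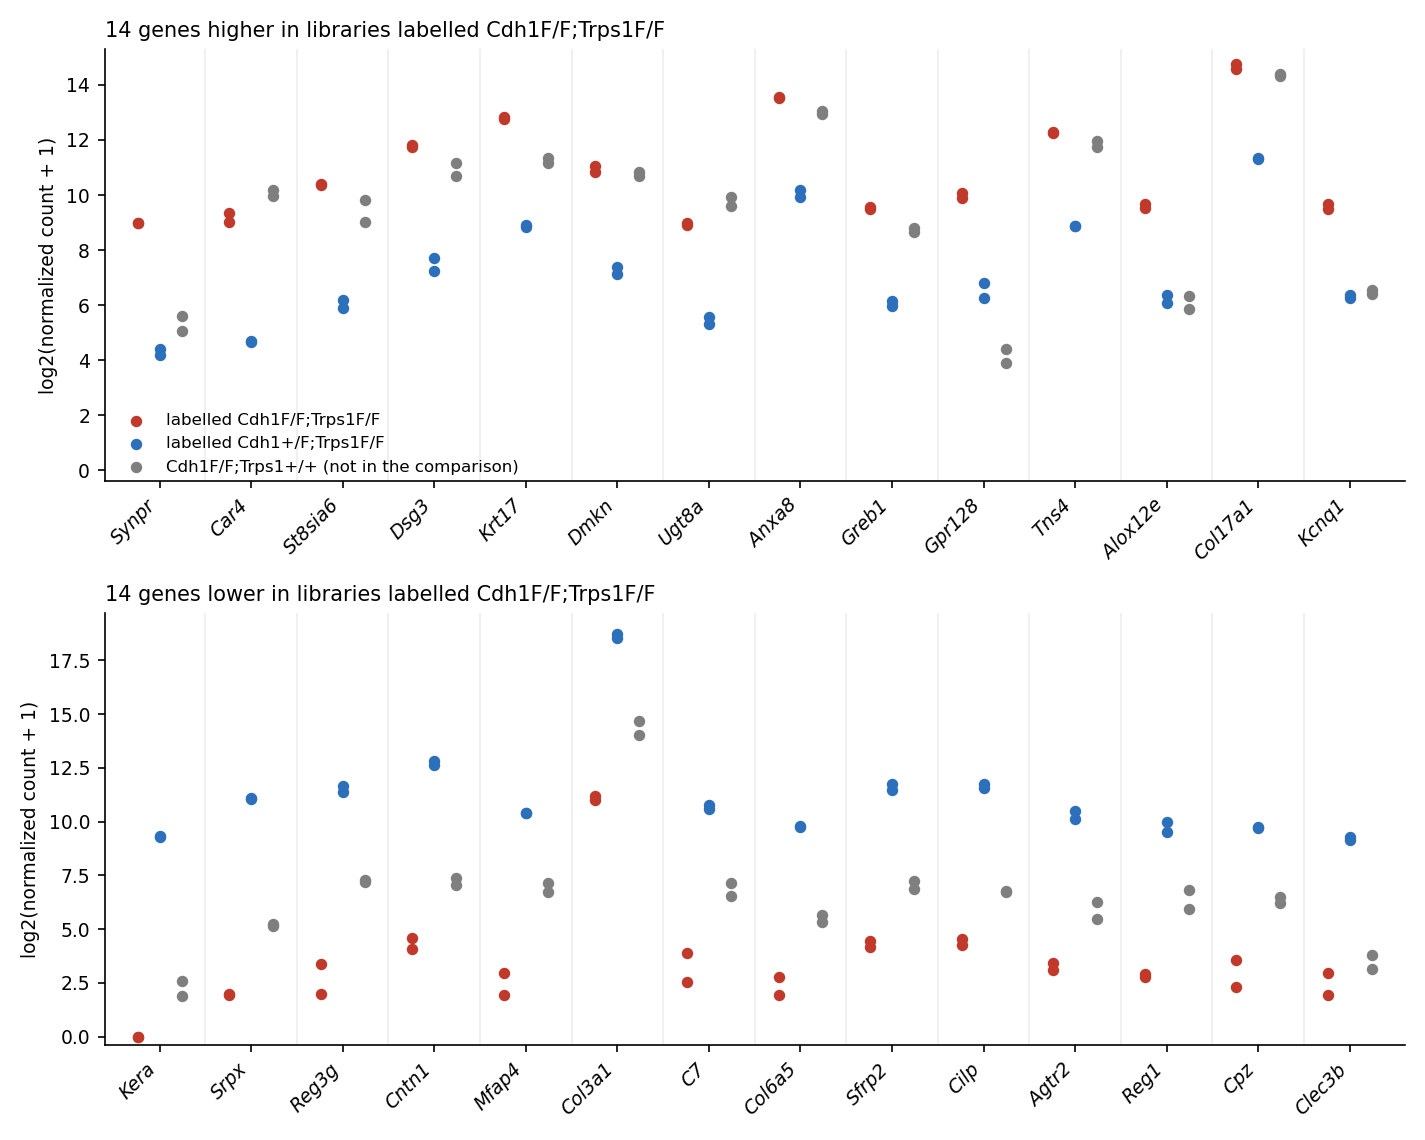
Log2(normalized count + 1) in each day 14 library for the 14 genes that rose most and the 14 that fell most under the naming rule, with 2 points per genotype (red, Cdh1F/F-labelled; blue, Cdh1+/F-labelled; grey, Trps1+/+). The 2 libraries of a genotype lie close together beside the gap between red and blue, grey lies near red for genes such as Col17a1 and Tns4 and near blue for Synpr and Kcnq1, and grey lies between them for the genes that fell.

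TRPS1 recognises the GATA motif, and the 2 groups differed in remaining Trps1 count, so promoters of 3 of these genes are shown: 1 that rose and 2 that fell, 1 of them with and 1 without the motif. Each is the 250 bases before the annotated start from RefSeq (GRCm38.p6), 5′ to 3′ on the gene's strand, with GATAA or its reverse complement TTATC in capitals.
Col17a1, chr19:47692043-47692292, minus strand: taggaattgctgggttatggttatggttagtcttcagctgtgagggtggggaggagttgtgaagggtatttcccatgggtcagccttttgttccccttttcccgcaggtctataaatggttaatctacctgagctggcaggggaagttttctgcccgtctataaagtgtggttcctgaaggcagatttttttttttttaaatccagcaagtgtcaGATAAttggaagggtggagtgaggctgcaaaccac
Col3a1, chr1:45311288-45311537, plus strand: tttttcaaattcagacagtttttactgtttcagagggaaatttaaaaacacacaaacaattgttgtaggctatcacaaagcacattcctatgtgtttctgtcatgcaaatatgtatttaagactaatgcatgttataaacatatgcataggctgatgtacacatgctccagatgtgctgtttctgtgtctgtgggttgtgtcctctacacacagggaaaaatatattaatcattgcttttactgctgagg
C7, chr15:5063774-5064023, minus strand: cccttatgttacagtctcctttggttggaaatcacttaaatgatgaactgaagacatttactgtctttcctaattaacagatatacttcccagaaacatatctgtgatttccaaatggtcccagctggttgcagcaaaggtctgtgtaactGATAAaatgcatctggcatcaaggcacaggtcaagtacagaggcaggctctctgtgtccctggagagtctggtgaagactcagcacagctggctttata
Col17a1 held 1 match, Col3a1 held 0 and C7 held 1. Of the 28 named genes, 21 had an entry in the promoter table, and GATAA in either direction stood in 2 of 9 that rose (Synpr, Col17a1) and 3 of 12 that fell (C7, Reg1, Cpz). It stood in 16.3% of 546 promoters of genes higher by 2-fold or more, in 18.8% of 1510 promoters of genes lower by 2-fold or more, in 14.8% of those of all kept genes and in 23.0% of all promoters in the table. A match is a stretch of letters and not evidence that a protein binds there.

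The cadherins did not move together. Of 11 kept classical and type II cadherins, 2 were higher and 6 were lower, with a median log2 fold change of -1.29, or 1 and 4 without replicate 2 of the Cdh1F/F-labelled group and 1 and 5 without replicate a of the Cdh1+/F-labelled group. Cdh3, the P-cadherin of basal cells, had 1801 and 1745 normalized counts in Cdh1F/F-labelled libraries, against 626 and 652 in Cdh1+/F-labelled ones and 1447 and 1481 in Trps1+/+. It rose by 1.47 on the log2 scale (SE 0.0776, adjusted p = 1.56e-08). Cdh11, the cadherin of fibroblasts and osteoblasts, had 277 and 273 against 2759 and 2641 (Trps1+/+, 529 and 533), and Cdh13, the membrane-anchored T-cadherin that lacks a cytoplasmic tail, had 231 and 197 against 2740 and 2883 (Trps1+/+, 519 and 558). Both fell, with log2 fold changes of -3.29 (adjusted p = 4.21e-09) and -3.71 (adjusted p = 2.65e-07), and Cdh5, the cadherin of endothelium, had -1.29 (adjusted p = 0.00892). The call of Cdh5 was lost without replicate b of the Cdh1+/F-labelled group (-1.07, adjusted p = 0.0858) or replicate 1 of the Cdh1F/F-labelled group (-1.01, adjusted p = 0.0991).

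Desmosome genes, which couple intermediate filaments of neighbouring cells, were higher in the Cdh1F/F-labelled libraries. Of 12 kept, 10 rose and none fell (median log2 fold change 1.37), and under all 3 other scalings of the libraries the median stayed between 0.785 and 1.41. Perp, a desmosomal tetraspan protein, had 12652 and 13338 normalized counts against 3446 and 3339, with 10735 and 8703 in Trps1+/+, and Pkp1, the plaque protein plakophilin 1, had 17571 and 16960 against 6284 and 6395, with 6890 and 6085. Both genes rose (log2 fold changes 1.94 and 1.45; limma, adjusted p = 2.3e-08 and 8.33e-08). The desmocollin Dsc2 (1.86) and periplakin, Ppl (1.43), rose too.

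In the plaque of the adherens junction 10 of 18 kept genes rose and 2 fell, or 1 fell when any 1 of the 4 libraries was left out (median 0.357, or -0.225 with the epithelial centring). Ctnnb1, beta-catenin, had 48912 and 48322 normalized counts in Cdh1F/F-labelled libraries, against 28486 and 26572 in Cdh1+/F-labelled ones and 24291 and 23373 in Trps1+/+, and Jup, plakoglobin, had 14752 and 13424 against 6356 and 6153 (Trps1+/+, 10362 and 10937). Both rose, Ctnnb1 by 0.82 (SE 0.0905, adjusted p = 1.01e-05; 0.24 and adjusted p = 0.0554 with the epithelial centring) and Jup by 1.17 (SE 0.0879, adjusted p = 3.25e-07) on the log2 scale. Of 23 kept tight junction genes 19 rose and 2 fell (median 0.501, or -0.0814 with the epithelial centring), among them the claudin Cldn3 (0.99) and the scaffold Tjp3 (0.86). Among 25 kept integrins and matrix receptors 12 were higher and 12 lower (median 0.322, or -0.26 with 8 higher and 13 lower under the epithelial centring). Itgb4, the hemidesmosomal integrin chain, had 6003 and 5856 normalized counts against 1863 and 1835 and rose by 1.68 (adjusted p = 3.98e-08). Itga11, a collagen receptor chain of fibroblasts, had 314 and 294 against 2560 and 2103 and fell, with a log2 fold change of -2.93 (adjusted p = 8.34e-09). Among laminin chains and related basement membrane genes, Lamb3 had a log2 fold change of 1.78, whereas Lama2 and nidogen 2, Nid2, had -2.41 and -4.97.

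Of the basal epithelium list all 24 kept members were called, 19 higher and 5 lower (median 0.911). The summed list differed little between the labels. It held 1.46 and 1.4% of the normalized counts of the Cdh1F/F-labelled libraries, against 1.24 and 1.4% in the Cdh1+/F-labelled ones. It was highest in Trps1+/+, at 1.67 and 1.79%. Its median stayed above 0 in each of the 3 other scalings, with 13 higher and 5 lower under the epithelial centring. That centring uses these basal genes together with the luminal ones, so it only places the basal genes relative to the combined set. Trp63 (chr16:25683763-25892102), the transcription factor that keeps basal identity, had 3017 and 3131 normalized counts in Cdh1F/F-labelled libraries, against 622 and 526 in Cdh1+/F-labelled ones and 4121 and 3473 in Trps1+/+ (log2 fold change 2.42, SE 0.123, adjusted p = 1.08e-08). The Trps1+/+ libraries had the highest values. Lama3 rose as well (2.15), while Ngfr, a neurotrophin receptor of basal cells and nerve, had 15 and 15 against 923 and 876 and fell (log2 fold change -5.83, adjusted p = 1.52e-09). The contractile genes of myoepithelium, which smooth muscle shares, went the other way: 12 of 15 kept fell and 1 rose (median -1.57). Acta2, smooth muscle actin, had 1954 and 2012 normalized counts in Cdh1F/F-labelled libraries, against 6025 and 5756 in Cdh1+/F-labelled ones and 1166 and 1357 in Trps1+/+. Myh11, smooth muscle myosin, had 88 and 75 against 957 and 918 (Trps1+/+, 176 and 239). The 2 fell, with log2 fold changes of -1.57 (adjusted p = 2.78e-08) and -3.51 (adjusted p = 1.32e-08), and for Acta2 the Trps1+/+ libraries were the lowest of the 3 genotypes.

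Of 30 kept luminal genes 19 rose and 2 fell (median 0.515). The epithelial centring, which uses these genes, brings the median to -0.0666, with 5 higher and 8 lower. Wfdc2, a secreted protease inhibitor, had 6929 and 7178 normalized counts against 1683 and 1420 (Trps1+/+, 1686 and 1717) and rose by 2.19 on the log2 scale (adjusted p = 5.72e-09). Aldh1a3, a retinaldehyde dehydrogenase of luminal progenitors, had 5609 and 5492 in Cdh1F/F-labelled libraries, against 10510 and 11673 in Cdh1+/F-labelled ones and 3096 and 3079 in Trps1+/+ (log2 fold change -1.0, SE 0.0783, adjusted p = 4.82e-07). At day 28 Aldh1a3 had the opposite sign, 1.65 (adjusted p = 1.94e-09). Of 21 kept genes of milk and secretory differentiation 5 rose and 10 fell. The casein Csn3 had 1960 and 1966 normalized counts against 27392 and 35094, with 6215 and 5626 in Trps1+/+ (log2 fold change -3.98, SE 0.153, adjusted p = 1.21e-09), while transferrin, Trf, rose by 2.14. In the squamous list, genes of cornifying epithelium, 3 of 17 kept rose and 2 fell, beside 19.0% and 21.6% of all kept genes. Its median was 0.321, or -0.261 with the epithelial centring. Fewer of its genes fell without replicate b of the Cdh1+/F-labelled or replicate 1 of the Cdh1F/F-labelled group. Krt6a, a keratin induced in wounded and hyperproliferative epithelium and similar in sequence to its neighbours, rose by 2.36 (limma, adjusted p = 0.000117).

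Markers of other cell types of the mammary fat pad were lower in the Cdh1F/F-labelled libraries. All 23 kept fibroblast genes fell (median log2 fold change -3.72), and the summed list held 0.389 and 0.385% of the normalized counts of the Cdh1F/F-labelled libraries, against 4.53 and 4.10% in the Cdh1+/F-labelled and 0.944 and 0.992% in the Trps1+/+ libraries. Col1a1, a chain of fibrillar collagen I, had 1304 and 1265 normalized counts against 87192 and 75380 (Trps1+/+, 3988 and 7772; log2 fold change -5.98, adjusted p = 2.95e-09). Thy1, a fibroblast surface marker, had 119 and 142 against 3617 and 3477 (Trps1+/+, 318 and 388; log2 fold change -4.76, adjusted p = 1.21e-09). No fibroblast gene was at 0 in all 4 libraries, and Tcf21 was without reads in the Cdh1F/F-labelled ones. In bulk RNA, fewer cells of a type and less RNA per cell cannot be told apart, and the part of these markers in the other differences reported was not tested.

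Skeletal muscle, immune and vascular markers fell as well. All 24 kept skeletal muscle genes fell (median -2.48), and their sum was 0.0241 and 0.0261% of the Cdh1F/F-labelled libraries, against 0.120 and 0.135% of the Cdh1+/F-labelled and 0.0757 and 0.10% of the Trps1+/+ libraries. Myh1, a fast muscle myosin with close paralogs, had 127 and 108 normalized counts against 1596 and 1548 (Trps1+/+, 558 and 719). Of 25 kept macrophage and myeloid genes 22 fell and none rose (median -2.69), with sums of 0.0452 and 0.0476% in Cdh1F/F-labelled libraries, against 0.157 and 0.159% in Cdh1+/F-labelled ones and 0.0923 and 0.0924% in Trps1+/+. Laptm5, a lysosomal protein of blood cells, had 157 and 164 against 1266 and 1222 (Trps1+/+, 350 and 486), and Lyz2, lysozyme of macrophages, whose reads may be shared with its neighbour Lyz1, had 1546 and 1862 against 14345 and 14454. These were 2 of the 22 that fell (log2 fold changes -2.95 and -3.08). The mast cell proteases Mcpt4 and Cpa3 had 182 and 186 and 231 and 243 normalized counts in Cdh1F/F-labelled libraries, against 3587 and 3502 and 3381 and 3312 in Cdh1+/F-labelled ones. Among 18 kept endothelial genes 13 fell and 3 rose, but 8 fell and 2 rose without replicate b of the Cdh1+/F-labelled group, and 9 fell and 1 rose without replicate 1 of the Cdh1F/F-labelled group. Adipocyte genes were called less, with 6 of 15 lower and 1 higher, or none higher without replicate b of the Cdh1+/F-labelled or replicate 2 of the Cdh1F/F-labelled group. Lpl, lipoprotein lipase, had 3303 and 3955 normalized counts against 29458 and 27519 (Trps1+/+, 18389 and 18954) and fell (log2 fold change -2.98, adjusted p = 4.38e-07).

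**Figure D3:**
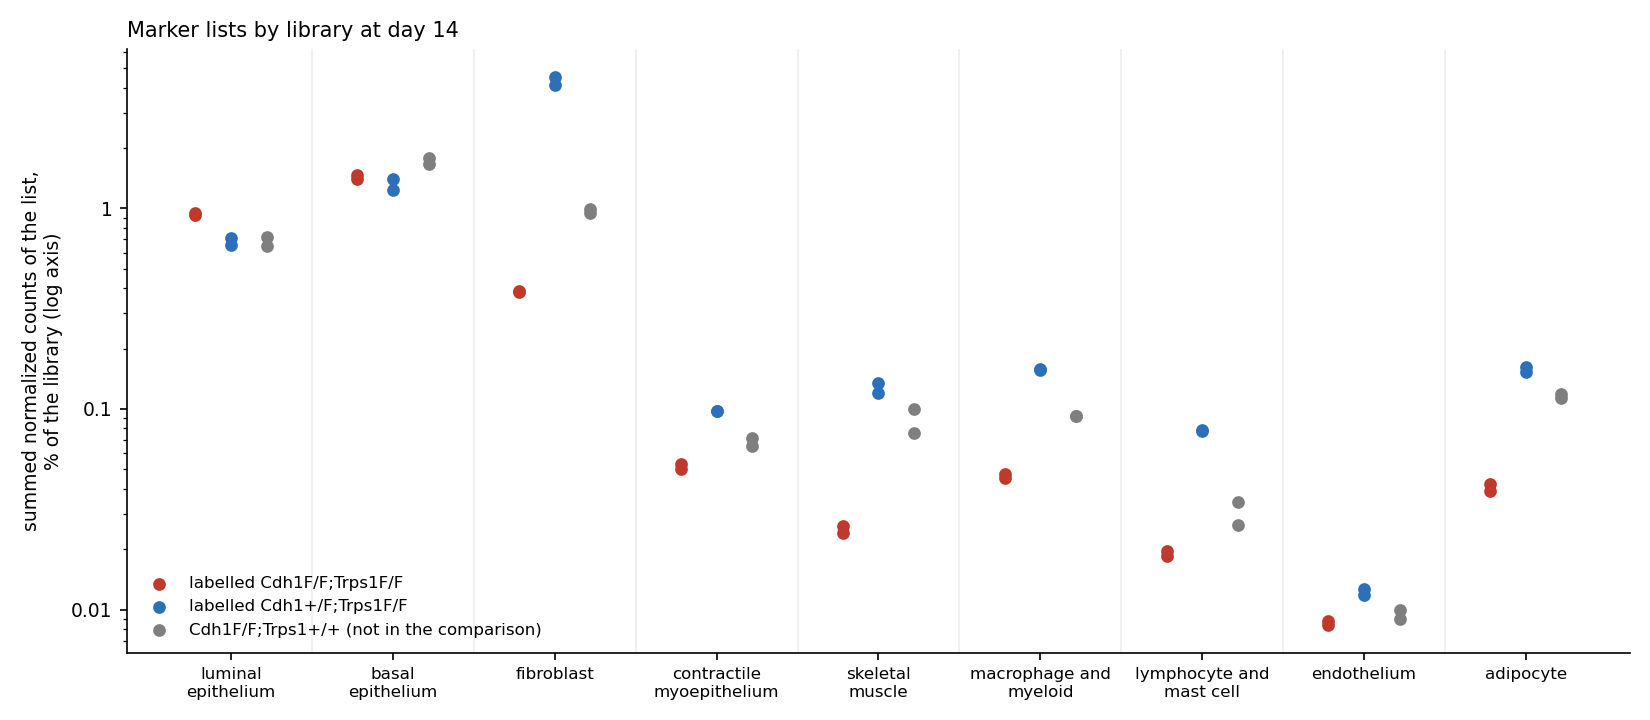
Summed normalized counts of 9 marker lists as a percentage of each library's total (log axis), with 2 libraries per genotype (red, Cdh1F/F-labelled; blue, Cdh1+/F-labelled; grey, Trps1+/+). The fibroblast list stands at 0.385 and 0.389% in red, against 4.10 and 4.53% in blue, the muscle, immune, endothelial and adipocyte lists are lowest in red, and the luminal list is highest in red. The basal list is highest in grey, and red and blue meet at 1.4%.

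Of 25 kept transcription factors and markers of epithelial-mesenchymal transition 19 fell and 3 rose (median -1.80). Loxl2, a lysyl oxidase that crosslinks collagen, had 102 and 111 normalized counts against 3446 and 3638 (Trps1+/+, 296 and 285), and Prrx1, a mesenchymal homeobox factor, had 668 and 760 against 3615 and 3509 (Trps1+/+, 2731 and 2413). Both genes fell (log2 fold changes -5.05 and -2.32; limma, adjusted p = 2.43e-10 and 1.68e-08). Matrix proteases and their inhibitors fell in 19 of 24 kept cases and rose in 2. Mmp2, gelatinase A, had 7222 and 7337 normalized counts in Cdh1F/F-labelled libraries, against 68821 and 62014 in Cdh1+/F-labelled ones and 19820 and 22494 in Trps1+/+ (log2 fold change -3.17, adjusted p = 6.39e-08). Mmp13, a collagenase, had 2980 and 4178 against 22862 and 21906, and here the Trps1+/+ libraries, with 25713 and 22829, overlapped the Cdh1+/F-labelled range. Fibroblasts express many genes of both lists, and the fibroblast list fell in the same libraries. Lum and Pdgfrb of the transition list are also members of the fibroblast list. Whether fibroblast content had a part in these falls was not tested.

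Cell cycle genes were higher in the Cdh1F/F-labelled libraries. All 32 kept genes of G2 and mitosis rose (median 1.11), with 21 higher and none lower under the epithelial centring. Anln, the cytokinesis scaffold anillin, had 1003 and 1038 normalized counts against 300 and 348, with 728 and 710 in Trps1+/+ (log2 fold change 1.66, SE 0.159, adjusted p = 2.84e-06). Foxm1, the transcription factor of the mitotic programme, had 382 and 391 against 163 and 163, with 250 and 269 (log2 fold change 1.24, adjusted p = 5.21e-05). In both genes the Trps1+/+ libraries lay between the groups. Of 36 kept S phase genes 30 rose and none fell (median 0.655), among them the licensing helicase subunit Mcm6 (1.22), the nucleotide reductase Rrm2 (1.25) and the methylation maintenance factor Uhrf1 (1.49), though the epithelial centring left 9 higher and 4 lower. Ccnd1, cyclin D1, had 16744 and 17024 normalized counts in Cdh1F/F-labelled libraries, against 4778 and 5137 in Cdh1+/F-labelled ones and 5996 and 6661 in Trps1+/+ (log2 fold change 1.77, adjusted p = 8.81e-08). The inhibitors Cdkn1c and Cdkn1a, p57 and p21, had 45 and 42 and 2385 and 2538 against 154 and 154 and 4214 and 3614, and fell (log2 fold changes -1.81 and -0.67). Among p53 targets 8 of 27 rose and 8 fell (median 0.123, or -0.459 with the epithelial centring), or 5 and 5 without replicate 1 of the Cdh1F/F-labelled group, and the proapoptotic Pmaip1 had 1604 and 1875 against 210 and 262 (Trps1+/+, 211 and 157; log2 fold change 2.88, adjusted p = 9.1e-08).

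Genes of Wnt signalling changed on both sides. Of 19 kept Wnt target genes 10 rose and 5 fell, or 3 fell without replicate a of the Cdh1+/F-labelled or replicate 2 of the Cdh1F/F-labelled group (median 0.517, or -0.0651 with the epithelial centring). Nkd2, a feedback inhibitor of the pathway, had 24282 and 24948 normalized counts in Cdh1F/F-labelled libraries, against 3016 and 2955 in Cdh1+/F-labelled ones and 5133 and 3842 in Trps1+/+ (log2 fold change 3.04, SE 0.124, adjusted p = 1.78e-09). Lgr6, an R-spondin receptor of basal progenitors, had 6103 and 6100 against 1997 and 2077 and rose by 1.58. The ligands split by gene, with 4 of 13 kept higher and 4 lower. Rspo2, an R-spondin that enhances Wnt signals, had no read in either Cdh1F/F-labelled library, against 191 and 164 normalized counts in the Cdh1+/F-labelled ones, at least 124-fold lower with 3 counts over the group in place of 0. Wnt2 had 1.88 and 2.91 against 81 and 67 (log2 fold change -4.48), whereas Wnt10a had 214 and 190 against 33 and 43 and rose by 2.38 (adjusted p = 1.58e-06). In the Notch list 10 of 17 kept genes rose and 3 fell, or 1 fell without replicate a of the Cdh1+/F-labelled group (median 0.441, or -0.141 with the epithelial centring). The Notch feedback gene Nrarp had 1391 and 1241 normalized counts against 179 and 170 (Trps1+/+, 763 and 811; log2 fold change 2.91, adjusted p = 7.23e-09), and the ligands Jag2 and Dll1 rose by 1.79 and 1.51.

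Feedback genes of growth factor signalling were among those that rose. Dusp4, a phosphatase that inactivates MAP kinases and is induced by them, had 5673 and 5063 normalized counts in Cdh1F/F-labelled libraries, against 930 and 764 in Cdh1+/F-labelled ones and 1432 and 1394 in Trps1+/+ (log2 fold change 2.67, SE 0.106, adjusted p = 1.52e-09). Etv4 and Dusp6 rose by 1.92 and 1.42, while the ligand Fgf10, made by mesenchyme, had 59 and 80 against 1043 and 837 and fell (log2 fold change -3.74, adjusted p = 3.98e-06). In the FGF and Sprouty list 11 of 20 kept genes were higher and 5 lower (median 0.416, or -0.166 with the epithelial centring). The EGF receptor gene Egfr had 3045 and 2920 normalized counts against 7032 and 6716 and fell (log2 fold change -1.20), whereas its ligand Tgfa had 825 and 805 against 203 and 211 and rose by 1.97. Both members of that pair separated the genotypes without overlap, as did 73.5% of all kept genes. Igf1, insulin-like growth factor 1, had 109 and 104 against 3647 and 3223 (Trps1+/+, 584 and 479; log2 fold change -5.00, adjusted p = 1.22e-10), and 8 of 14 kept genes of the IGF list fell while 5 rose. Igfbp3, a binding protein that sequesters IGFs, had 5452 and 6082 against 941 and 1189, with 16993 and 13388 in Trps1+/+ (log2 fold change 2.44). Id4, an inhibitor of helix-loop-helix factors in basal cells, had 1584 and 1677 against 226 and 193 (log2 fold change 2.96), and the receptor Tgfbr2 had 6121 and 6054 against 16038 and 15426 (log2 fold change -1.37).

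Secretory, inflammatory and antimicrobial genes moved in both directions. All 16 kept acute phase and antimicrobial genes were called, 9 higher and 7 lower (median 0.373, or -0.21 with the epithelial centring). Defb1, a beta-defensin of epithelia, had 317 and 317 normalized counts in Cdh1F/F-labelled libraries, against 8.29 and 12 in Cdh1+/F-labelled ones and 524 and 368 in Trps1+/+ (log2 fold change 4.85, adjusted p = 7.03e-07). Saa3, a serum amyloid protein, had 16133 and 16943 against 182274 and 193260 (Trps1+/+, 75060 and 65145; log2 fold change -3.50, adjusted p = 2.66e-06), and complement C3 had 11004 and 9964 against 37929 and 39730 (log2 fold change -1.89). The cytokine Tnf had 608 and 671 against 100 and 116 and rose by 2.56, whereas Il33 had 112 and 150 against 1839 and 2134 and the neutrophil chemokine Cxcl5 had 148 and 235 against 3551 and 3113 (log2 fold changes -3.92 and -4.15). Of 35 kept interferon response genes 19 rose and 4 fell (median 0.482, or -0.10 with the epithelial centring), with Ifi44 at 669 and 786 against 148 and 148 and highest, at 2117 and 1604, in Trps1+/+. Channels and transporters of secretory epithelium rose in 9 of 17 kept cases and fell in 4. Among them the chloride channel Ano1 had 6154 and 5638 normalized counts against 2098 and 2073 (Trps1+/+, 3373 and 3228; log2 fold change 1.5, SE 0.0876, adjusted p = 3.75e-08).

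Cholesterol synthesis differed between the days. At day 14, 13 of 23 kept genes fell and 2 rose, or 1 rose when any 1 of the 4 libraries was left out (median -0.357), while at day 28, 22 rose and 1 fell (median 0.841), and in the test of the difference between days all 23 were called, each with the lower value at day 14. Cyp51, lanosterol demethylase, had 1148 and 1161 normalized counts at day 14 in Cdh1F/F-labelled libraries, against 2562 and 2481 in Cdh1+/F-labelled ones and 1085 and 1037 in Trps1+/+. Its log2 fold change was -1.13 at day 14 (SE 0.0779, adjusted p = 1.6e-07) and 0.40 at day 28 (adjusted p = 0.000712), and the 2 differed by -1.52 (adjusted p = 5.26e-06). The day 28 rise depends on the scaling. The epithelial centring lowers day 28 fold changes by more than 0.841, so the list median and Cyp51 fall below 0 at day 28 under it. The library medians it sets equal were 0.522 and 0.483 in Cdh1F/F-labelled and -0.701 and -0.640 in Cdh1+/F-labelled day 28 libraries. Insig1, the sterol sensor that restrains the pathway, had 1069 and 1113 against 2951 and 2839 and was lower on both days (log2 fold changes -1.41 and -0.69). In housekeeping lists few genes were called, with 27 of 31 kept genes of oxidative phosphorylation and 26 of 30 ribosomal protein genes not called. Under the epithelial centring 29 and 25 of them were called lower, and the ribosomal median was -0.408, beside 0.174. The glucose transporter Slc2a1 had 9638 and 9352 against 3892 and 3390 and rose by 1.39 (adjusted p = 6.59e-07).

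**Figure D4:**
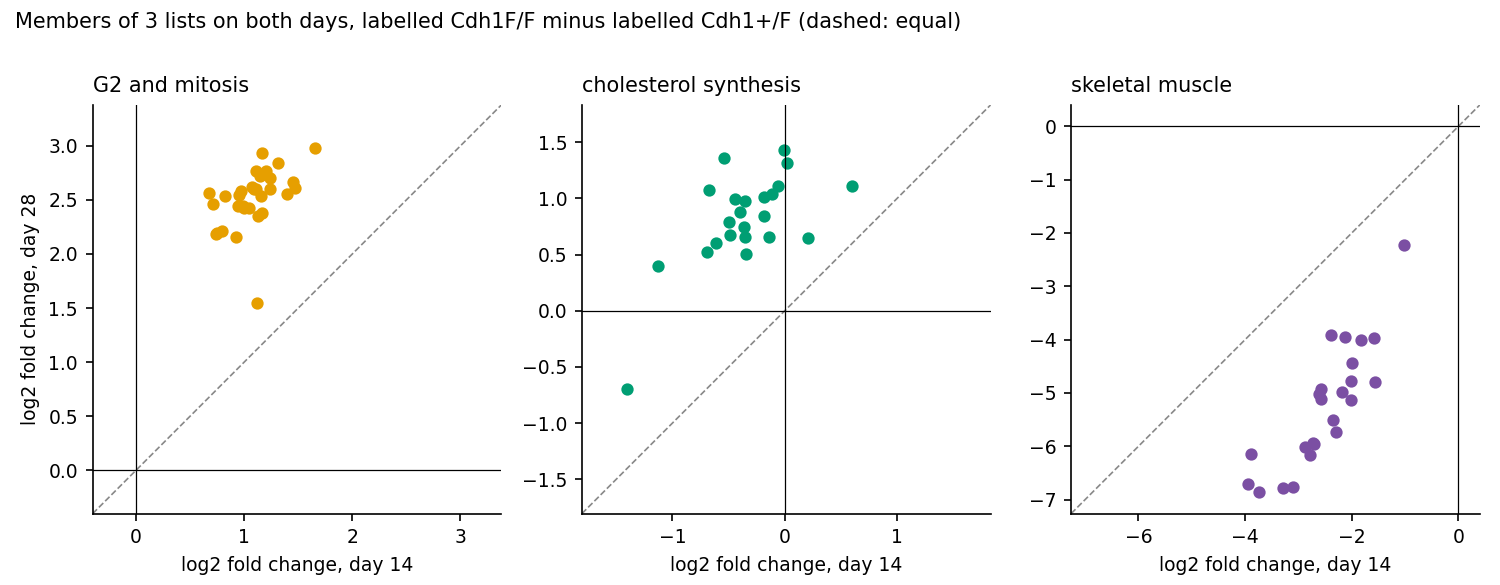
Log2 fold change (Cdh1F/F-labelled minus Cdh1+/F-labelled) at day 14 (horizontal) and day 28 (vertical) for members of the G2 and mitosis, cholesterol synthesis and skeletal muscle lists, 1 point per gene, with equality dashed. G2 and mitosis genes rise on both days with medians of 1.11 and 2.56, cholesterol genes lie mostly below 0 at day 14 and above 0 at day 28, and muscle genes have medians of -2.48 and -5.12.

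Genes linked to TRPS1 itself were examined because both genotypes carry floxed Trps1 and their remaining Trps1 counts differed. Of 26 kept GATA factors and Trps1 partners 7 rose and 4 fell, beside 19.0% of all kept genes called higher and 21.6% called lower. Fewer rose when replicate b of the Cdh1+/F-labelled group or either Cdh1F/F-labelled library was left out. Under the epithelial centring 1 was higher and 21 lower (median -0.461, beside 0.121). Gata3, the luminal GATA factor, had 1663 and 1447 normalized counts against 973 and 1057, with 1678 and 1709 in Trps1+/+ (log2 fold change 0.61, SE 0.107, adjusted p = 0.000472; 0.03 and adjusted p = 0.792 with the epithelial centring). Gata2 had 21 and 22 against 341 and 271 and Gata6 had 34 and 27 against 159 and 158, and both fell (log2 fold changes -3.76 and -2.34). A short list held genes seen earlier in these data to be higher where Trps1 was floxed. Clca2 had 12197 and 11081 normalized counts in Cdh1F/F-labelled libraries, against 4627 and 4036 in Cdh1+/F-labelled ones and 121 and 90 in Trps1+/+. The secreted chaperone clusterin, Clu, had 116483 and 122464 against 149712 and 162366, with 7025 and 7989 in Trps1+/+. Between the labels Clca2 rose by 1.43 (adjusted p = 0.000156) and Clu fell (log2 fold change -0.38, adjusted p = 0.0154). For Clu quantile normalization gave 0.12 (adjusted p = 0.554), and leaving out replicate b of the Cdh1+/F-labelled or replicate 1 of the Cdh1F/F-labelled group gave adjusted p = 0.0998 and 0.0958. Mecom rose by 1.11, and Scara3 was not called (-0.28, adjusted p = 0.112; -0.86 and adjusted p = 7.97e-05 with the epithelial centring, and -0.28 and adjusted p = 0.00915 with the 4 libraries alone). Clca genes are close paralogs whose symbols have changed between annotations, so their split of reads is uncertain.

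**Figure D5:**
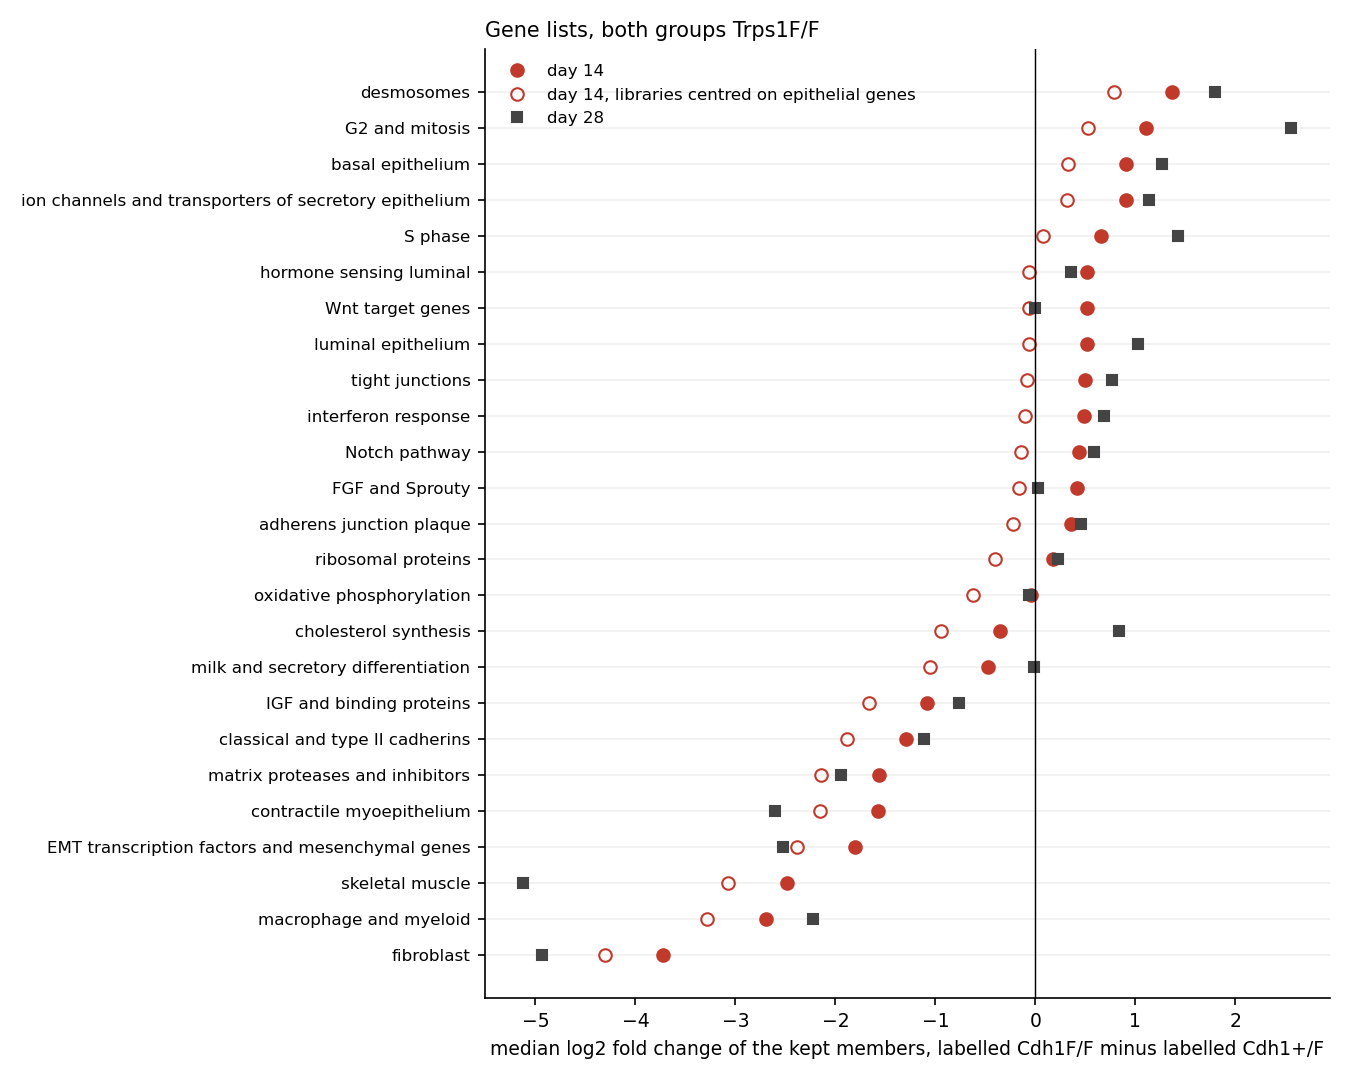
Median log2 fold change of the kept members of 25 gene lists (Cdh1F/F-labelled minus Cdh1+/F-labelled) at day 14 (filled circles), at day 14 with libraries centred on epithelial genes (open circles) and at day 28 (squares). Desmosome, G2 and mitosis and basal lists stay above 0 in all 3, and fibroblast, muscle and macrophage lists stay below 0. Cholesterol synthesis changes side between the days without that centring, which is not drawn for day 28.

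Since the genotypes differ in the alleles at Cdh1, genes near the locus were counted. Within 1 Mb of Cdh1, 5 of 41 kept genes were higher and 3 lower (19.5% called), and within 5 Mb 19 of 113 were higher and 20 lower (34.5%). Within 10 Mb of Cdh1, 23 of 131 kept genes were higher and 24 lower (35.9% called, beside 40.6% of all kept genes), and within 10 Mb of Trps1, 16 of 53 were higher and 8 lower (45.3%). Cdh3 (chr8:106510891-106557297), which rose, lies beside Cdh1 on chromosome 8. Over 20 chromosomes the median log2 fold change ran from -0.077 to 0.0714 and the share called from 33.4 to 47.3%.

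At day 28, whose libraries entered the same fit and share its estimate of the spread, 8993 genes (56.7%) were called, 4395 higher (27.7%) and 4598 lower (29.0%). Of the genes higher at day 14, 2282 were higher at day 28 (75.7% of the day 14 list, 51.9% of the day 28 list), and 2870 were lower on both days (83.9% and 62.4%). The opposite sign was called in 118 genes that were higher and 74 that were lower at day 14. The genotype difference itself differed between days in 3038 genes (19.2%), 1860 (11.7%) with the higher and 1178 (7.43%) with the lower value at day 14, and in 2015, 1961 or 1999 genes without replicate 1 or replicate 2 of the Cdh1F/F-labelled group at day 14 or replicate a of the Cdh1+/F-labelled group at day 28. Skeletal muscle genes were lowered further at day 28, with 23 of 24 differing between days (medians -2.48 and -5.12). Myh1 had a log2 fold change of -3.74 at day 14 and -6.86 at day 28, a difference of 3.12 (adjusted p = 4.59e-05). Mitotic genes rose further, with 31 of 32 differing (medians 1.11 and 2.56), and Anln had 1.66 and 2.98 (difference -1.32, adjusted p = 0.00133). Of adipocyte genes 14 of 15 were lower at day 28 and 6 at day 14, and 12 of 15 differed between days. Desmosome genes differed in 5 of 12, and Dsg3 and Perp had day 28 values of 4.47 and 2.13 that did not differ from day 14 by the test (adjusted p = 0.682 and 0.424).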

How the data were processed

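RNA-seq libraries were made from organoid RNA with the Illumina TruSeq RNA kit, and only samples with a RIN above the submitters' limit were used, per the labels' protocols. Reads were processed with TopHat and HTSeq on GRCm38, per the submitters' processing notes; versions and strand settings were not given in the sources used here, so overlapping, antisense and paralogous genes are uncertain. The authors deposited log2(normalized count + 1) per gene. Each library's normalized counts were whole multiples of 1 factor within 0.01 reads in 100% of values, which gave the reads and totals. Of 24201 rows, 14 symbols turned into dates and 1 row without a name were left out.

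The log2 values of all 12 organoid libraries (6 groups) were fitted with limma 3.58.1 in R 4.3.3 (eBayes with trend; pseudocount 1). Kept genes had a normalized count + 1 of at least 10 in at least 2 libraries, and calls were made at adjusted p under 0.05 (Benjamini-Hochberg). SE is the standard error of the log2 fold change, and 73.5% of kept genes had groups that did not overlap. Gene positions come from GENCODE M21 (94.9% of kept genes matched by symbol).

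The comparison, 51 gene lists and the naming rule were chosen with earlier results of these data known. Named genes are Trps1, Cdh1, the 14 rising and 14 falling called genes with the largest log2 fold change (groups not overlapping, higher mean above the median of kept genes, no clone, predicted, pseudogene or mitochondrial symbol), and up to 5 members per described list with the smallest p; some genes and 1 list are not reported here. Columns of 8 libraries share a header with their replicate, and those replicates were named a, then b, by column position. Alternatives covered filters, pseudocount, scaling, libraries in the fit, the variance trend, voom and leaving out each library.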

Additional observations from a re-analysis of the deposited data

Results flagged for a closer look

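Of the 114 genes named above, 55 had a difference between Cdh1F/F-labelled and Cdh1+/F-labelled libraries at day 14 that differed from the one at day 28 (limma test of the difference, adjusted p under 0.05 over 15860 genes, of which 19.2% were called). The number given for each is the log2 fold change at day 14 minus that at day 28, so a value above 0 means a smaller fall or a larger rise at day 14. Among junction, basement membrane and basal genes it was -0.70 for Cdh1, 0.94 for Cdh11, 1.36 for Cdh13, 1.73 for Cdh5, 0.65 for Ctnnb1, -0.75 for Pkp1, -0.65 for Ppl, 0.51 for Col17a1, -0.46 for Itgb4, -0.79 for Lamb3, 4.23 for Lama2, 0.69 for Trp63 and 0.73 for Tns4. Among luminal, secretory and transport genes it was -2.64 for Aldh1a3, -0.92 for Clu, -2.56 for Defb1, 0.71 for Kcnq1, 2.35 for Car4, 2.23 for Synpr, -2.36 for Ugt8a, 1.95 for Lpl, -0.71 for Insig1 and -1.52 for Cyp51. Among contractile, muscle and mesenchymal genes it was 1.28 for Acta2, 1.05 for Myh11, 3.12 for Myh1, 1.92 for Prrx1, 1.69 for Mfap4, 2.28 for Mmp2, 1.80 for Mmp13 and 2.30 for Gata6. Among immune and inflammatory genes it was 1.53 for C3, 1.71 for C7, 1.47 for Saa3, 1.77 for Il33, 1.29 for Tnf, -0.84 for Ifi44 and -0.84 for Lyz2. Among cell cycle genes and inhibitors it was -1.32 for Anln, -1.36 for Foxm1, -1.01 for Mcm6, -1.29 for Rrm2, -1.07 for Uhrf1, 0.81 for Cdkn1a, 1.59 for Cdkn1c and 0.81 for Pmaip1. Among signalling genes it was 0.84 for Dusp4, 0.56 for Egfr, 1.93 for Fgf10, 1.25 for Id4, 0.90 for Igf1, -1.78 for Igfbp3, 0.50 for Lgr6, -2.09 for Sfrp2 and 0.52 for Tgfbr2. Aldh1a3, Cyp51 and Clu were lower at day 14 and higher at day 28 in the Cdh1F/F-labelled libraries under the main scaling. The epithelial centring lowers day 28 fold changes by more than the day 28 values of Cyp51 (0.40) and Clu (0.54), so these 2 fall below 0 there. Clu also changed sign at day 14 with quantile normalization. No group had 4 or more libraries, so no library was tested for standing apart from its group.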

How the results depend on the processing

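The count of genes called at day 14 was 6438, and 5756 to 7098 over 9 alternatives of filter, pseudocount, scaling, libraries in the fit, variance trend and voom. The epithelial centring, added after the data were seen, gave 11874 calls at day 14 (794 higher), 14206 at day 28 (580 higher) and 9570 for the difference between days (9266 above 0), beside 8993 and 3038 calls, and 144 calls beside 71 for genes near Cdh1 and Trps1. Leaving out 1 library gave 4683 to 5293 calls at day 14, 7610 to 8164 at day 28, 1961 to 2828 for the difference between days and 48 to 63 near the 2 loci; a group then has 1 library, which is assumed to vary like the other groups. Of 112 named genes called at day 14, 110 kept their call under all 13 alternatives that did not use that centring, and Cdh5 and Clu did not. Sign changed for Cdh1 with the epithelial centring (-0.50) and for Clu with quantile normalization (0.12). Cdh1 and Scara3 were the 2 named genes not called. Of these, 1 gained a call with quantile normalization, 1 with only the libraries of the same day and 1 with only the libraries of the groups compared. Each kept its sign there. No paired analysis was possible because the columns of the Cdh1+/F-labelled libraries carry no distinct replicate number. The cause of these changes was not tested. Genes below the filter were not tested, and Kera and Rspo2, at 0 in the Cdh1F/F-labelled libraries, allow only bounds at this depth.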

Other observations

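Counts of other gene lists in the day 14 comparison between Cdh1F/F-labelled and Cdh1+/F-labelled libraries are given beside 19.0% of all kept genes called higher and 21.6% called lower. A median after "centred" is that under the epithelial centring, given where it has the other sign. A list of YAP and TAZ targets also held Yap1, Wwtr1 (TAZ) and the Tead genes. Of its 23 kept genes 9 were higher and 5 lower (median log2 fold change 0.218, centred -0.364). Basement membrane genes had 6 of 22 higher and 11 lower (median -0.315). Of 29 genes of TGF-beta and BMP signalling 12 were higher and 9 lower (median 0.292, centred -0.29). The EGF family and its receptors had 6 of 17 higher and 3 lower (median 0.0225, centred -0.56), or 1 lower without replicate a of the Cdh1+/F-labelled or replicate 2 of the Cdh1F/F-labelled group. The D cyclins and CDK inhibitors had 4 of 17 higher and 7 lower (median 0.0622, centred -0.52). Apoptosis and anoikis genes had 6 of 22 higher and 2 lower (median 0.0951, centred -0.487), or 1 lower when any 1 of the 4 libraries was left out.

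Hormone-sensing luminal genes had 7 of 15 higher and 2 lower (median 0.52, centred -0.0618), or 4 higher without replicate 2 of the Cdh1F/F-labelled group. Of 28 genes of the unfolded protein response, which raises protein folding capacity in the endoplasmic reticulum, 11 were higher and 1 lower (median 0.197, centred -0.385 with 1 higher and 22 lower), or 5 higher without replicate b of the Cdh1+/F-labelled or replicate 2 of the Cdh1F/F-labelled group. Fatty acid synthesis had 3 of 19 higher and 8 lower (median -0.226), and glycolysis and hypoxia genes had 6 of 28 higher and 4 lower (median 0.0651, centred -0.517). A list of metallothioneins, small metal-binding proteins with similar sequences, also held zinc transporters and Mtf1. Of its 6 kept genes 4 were higher and 0 lower (median 0.466, centred -0.116). Fewer were higher without replicate a of the Cdh1+/F-labelled group or either Cdh1F/F-labelled library. Immediate early and AP-1 genes had 5 of 21 higher and 5 lower (median 0.0192, centred -0.563), or 2 higher without replicate a of the Cdh1+/F-labelled group, and 3 and 3 without replicate 2 of the Cdh1F/F-labelled group. NF-kB cytokines and chemokines had 11 of 26 higher and 7 lower (median 0.101, centred -0.481). Class I antigen presentation genes had 5 of 20 higher and 1 lower (median 0.16, centred -0.422 with 0 higher and 16 lower), or 3 higher without replicate b of the Cdh1+/F-labelled group, and 2 and 0 without replicate 1 of the Cdh1F/F-labelled group. Of 8 lymphocyte and mast cell genes 7 were lower and 0 higher (median -3.26). Nerve and glia genes had 3 of 9 higher and 4 lower (median 0.145, centred -0.437), and genes that vary between mouse strains had 2 of 7 higher and 1 lower.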
